A study of Bos taurus with 10 samples.

Results

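The 10 genes described here make, export, break down and sense prostaglandins. They were taken by name from the first column of a deposited expression table of 24596 features, in which 8 of the 10 were found. The other two, the inducible cyclooxygenase PTGS2 and the prostaglandin F receptor PTGFR, stood under the older names PGHS-2 and FP and were matched through the table's description column and its RefSeq accession. One member carries only an Ensembl identifier, ENSBTAG00000023384, is described in the table as carbonyl reductase 1, and is called CBR1 from here on.

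The table holds RNA-seq of bovine (Bos taurus) oviduct epithelial cells from the isthmus, the segment that joins the uterus. There were 5 libraries from cyclic heifers given a sham transfer and 5 from pregnant heifers given 50 presumptive zygotes produced in vitro. The comparison asks whether the presence of embryos alters the RNA of the cells that line the oviduct. The labels give no strain, age or hour of collection, and do not say that each library came from a separate animal, so the p-values measure the spread between libraries, and n counts libraries throughout.

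Prostaglandins are lipid signals made from arachidonic acid, which a phospholipase such as PLA2G4A cuts from membrane lipids. The cyclooxygenases PTGS1 and PTGS2 turn it into prostaglandin H, and terminal synthases turn that into prostaglandin E, F, D or I. The products leave the cell through carriers such as ABCC4, act on receptors of the same or neighbouring cells, and are inactivated by the dehydrogenase HPGD. In the oviduct, prostaglandins are known for their effects on the contraction of the muscle layer that moves gametes and embryos.

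Values are RPKM, reads scaled to gene length and to the total of the library, so levels of different genes are compared per length. Recovered library totals were lowest in cyclic library 4 (9.71 M reads; M, mega) and highest in pregnant library 5 (26.1 M). Means were 16.4 ± 3.79 M in cyclic and 19.8 ± 4.02 M in pregnant libraries (SD, n = 5 each), a difference with p = 0.254 (exact permutation of the 252 assignments, two-sided). Epithelial markers were high in every library, with EPCAM at 318 to 420 RPKM. Markers of other cells were low but present: the summed RPKM of 6 stromal fibroblast genes was 50.6 in cyclic library 1, 6.23 to 21.5 in the other cyclic and 7.87 to 17.8 in the pregnant libraries, and that of 5 smooth muscle genes was 45.3 in pregnant library 4, 15.9 to 33.5 in the cyclic and 16.2 to 22.4 in the other pregnant libraries. Summed leukocyte markers (7 genes) were 12.3 to 24.6 RPKM in cyclic and 13.1 to 22.3 RPKM in pregnant libraries. Of 5 mast cell genes only KIT, which other cells also use, had a mean of at least 1 RPKM, and MS4A2 was listed at 0 in 9 of 10 libraries. The sum of 3 ciliated cell genes was 183 to 286 RPKM in cyclic and 146 to 180 RPKM in pregnant libraries, and the sum of the secretory genes OVGP1 and PAX8, nearly all OVGP1, was 2897 to 8869 and 850 to 3377 RPKM. In bulk RNA, fewer cells of a type and less RNA per cell cannot be told apart. In a principal component analysis, component 1 held 38.1% of the variance: cyclic library 3 scored 10.5 there against -55.7 to -10.6 for the other cyclic libraries, and pregnant library 4 scored -6.47 against 21.6 to 29.3 for the other pregnant ones.

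In this bulk RNA every member had reads in every library, as few as 1 for PTGFR, at mean levels that spread over 3 orders of size. PTGES3 was far the highest member, with a mean of 282 RPKM over the 10 libraries, followed by PTGER4 at 30.3 RPKM and PLA2G4A at 16.2 RPKM. The lowest value of each of these genes lay above the highest value of the next member in the order, down to CBR1. CBR1 (3.96 RPKM) and ABCC4 (3.83 RPKM) could not be ordered, CBR1 being the higher in 4 of 10 libraries. PTGS1 (1.12 RPKM), PTGS2 (1.06 RPKM), PTGES (0.729 RPKM) and HPGD (0.599 RPKM) overlapped one another, and PTGFR was lowest at 0.256 RPKM, under HPGD in 9 of 10 libraries.

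**Figure D1:**
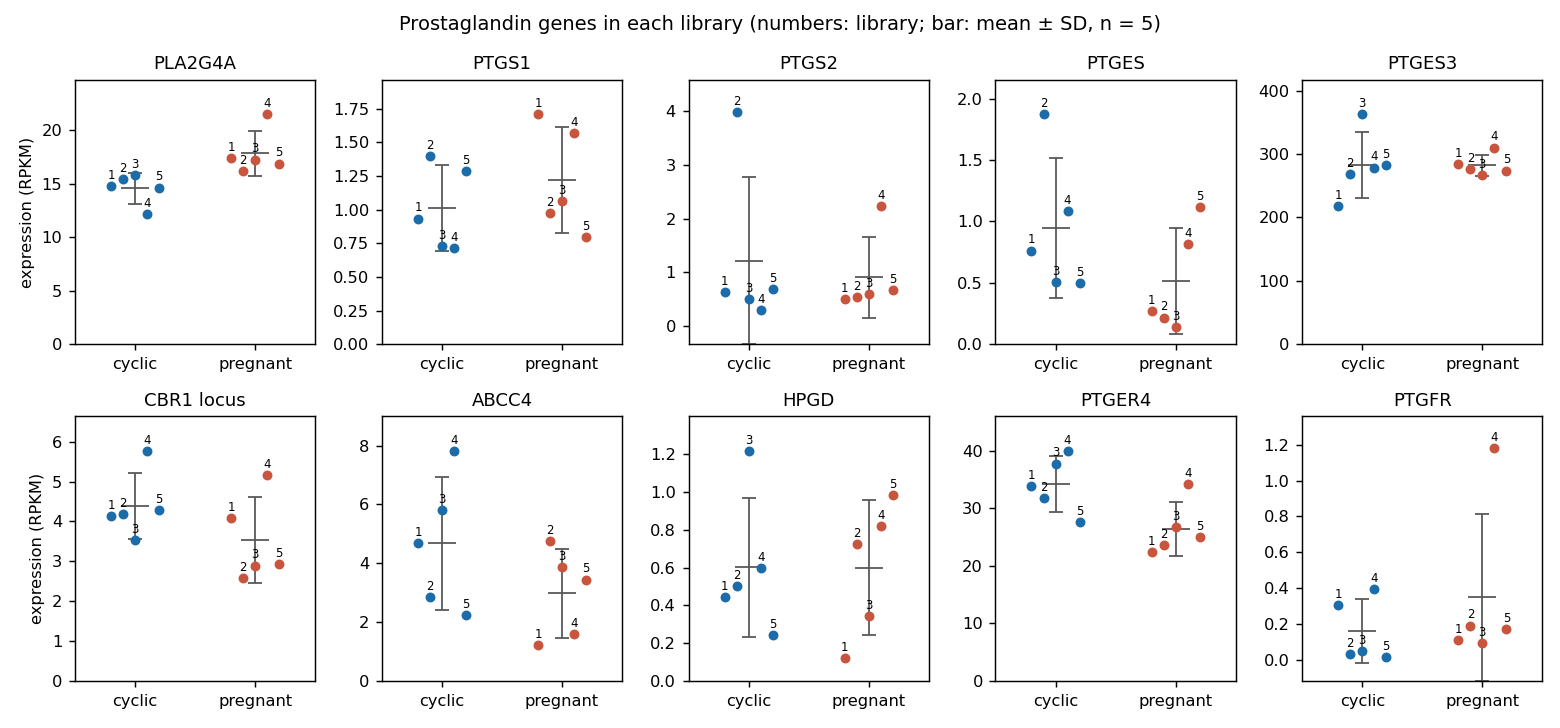
Expression (RPKM, linear axes of differing height) of the 10 genes in each library, cyclic in blue and pregnant in red; numbers name the library and bars give the mean ± SD (n = 5). Only PLA2G4A has groups that do not overlap (at most 15.8 RPKM in cyclic, at least 16.2 RPKM in pregnant libraries), and single libraries stand far above the rest for PTGS2 and PTGFR.

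No member passed the test between pregnant and cyclic heifers. The test was limma-trend on log2(RPKM + 1) with Benjamini-Hochberg adjustment over the 12834 features with a mean of at least 1 RPKM, and 7 of the 10 members were among these. At an adjusted p under 0.05 it called 0 of the 7 members and 0% of all tested features (the smallest adjusted p of any feature was 0.0934, shared by 438 features). At an unadjusted p under 0.05, which 27.5% of all tested features had, it gave 1 member higher (15.7% of all features) and 1 lower (11.9% of all features). The groups did not overlap for 1 of the 7 members, against 6.96% of all tested features, and the pregnant group lay higher, as for 4.91% of all tested features. The median difference of the 7 was -0.08 on the log2(RPKM + 1) scale, beside 0.01 over all tested features, with 3 members above 0 (50.9% of all tested features) and 4 below 0 (49.1%).

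The members under the filter were PTGES, HPGD and PTGFR, whose differences come from the same model fitted without a filter. In that fit 0% of 18571 features passed at an adjusted p under 0.05 and 21.1% had an unadjusted p under 0.05, and none of these 3 genes had either. PTGS2 passed the filter narrowly, with a mean of 1.06 RPKM. It was below 1 RPKM in 8 of 10 libraries and above it only in cyclic library 2 (3.99 RPKM) and pregnant library 4 (2.24 RPKM). Its mean without cyclic library 2 was 0.739 RPKM.

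PLA2G4A, the cytosolic phospholipase that frees arachidonic acid, was measured at 14.8, 15.5, 15.8, 12.2 and 14.6 RPKM in cyclic libraries 1 to 5 and at 17.4, 16.2, 17.2, 21.5 and 16.9 RPKM in pregnant libraries 1 to 5. Every pregnant library lay above every cyclic library, with the narrowest gap between pregnant library 2 and cyclic library 3. Means were 14.6 ± 1.43 and 17.8 ± 2.09 RPKM (SD, n = 5 each). The difference was 0.27 on the log2(RPKM + 1) scale (SE 0.11, 95% interval 0.03 to 0.52, limma adjusted p = 0.152), which did not pass. It was one of the least variable members, with a coefficient of variation of 9.83% in cyclic and 11.7% in pregnant libraries, and rested on 338 to 1261 recovered reads per library.

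The prostaglandin H synthases were both near 1 RPKM, and neither differed between the groups beyond its spread. PTGS1, the cyclooxygenase that most tissues make constantly, was at 0.932, 1.40, 0.730, 0.711 and 1.29 RPKM in the cyclic and 1.71, 0.972, 1.06, 1.57 and 0.794 RPKM in the pregnant libraries. The groups overlapped over most of their range. The difference of 0.14 log2 units (SE 0.17, 95% interval -0.23 to 0.51, limma adjusted p = 0.620) came from 18 to 77 reads per library; it was 0.24 with a pseudocount of 0.1 and -0.10 with array weights.

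PTGS2, the form that inflammation and growth signals induce, was at 0.629, 3.99, 0.499, 0.295 and 0.686 RPKM in the cyclic and 0.497, 0.541, 0.591, 2.24 and 0.670 RPKM in the pregnant libraries. A single library of each group stood apart, cyclic library 2 with 252 reads and pregnant library 4 with 134 reads, where the other libraries held 10 to 61. In these libraries alone PTGS2 exceeded PTGS1, by 2.85 and 1.43 times; elsewhere it was 0.291 to 0.844 of PTGS1. The group difference was -0.08 log2 units (SE 0.36, 95% interval -0.87 to 0.70, limma adjusted p = 0.899), and was 0.26 without cyclic library 2. With array weights, which were 2.78 for cyclic library 2 and 0.475 for pregnant library 4, it was -0.74 (adjusted p = 0.119). The summed leukocyte markers were 24.6 RPKM in cyclic library 2, the highest of all libraries, and 20.3 RPKM in pregnant library 4, within the range of the other pregnant libraries. Of the myeloid genes in that sum, CD14 was highest in cyclic library 2, at 8.81 RPKM, but AIF1, TYROBP and CSF1R were higher in other cyclic libraries, and their part in the PTGS2 values was not tested. PTGS2 and PLA2G4A are direct neighbours among protein-coding genes in the RefSeq gene table (assembly ARS-UCD2.0). Pregnant library 4 was the highest pregnant library for both, as it was for 6 of the 10 members in all. The highest cyclic library was library 2 for PTGS2 and library 3 for PLA2G4A.

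Of the prostaglandin E synthases, PTGES3 was high and even while PTGES was low and scattered. PTGES, the microsomal synthase that works with PTGS2, was at 0.763, 1.87, 0.509, 1.09 and 0.498 RPKM in the cyclic and 0.271, 0.216, 0.138, 0.818 and 1.12 RPKM in the pregnant libraries. Pregnant libraries 1 to 3 lay below every cyclic library, and pregnant libraries 4 and 5 lay within the cyclic range. These values rest on 2 to 29 reads per library. The difference of -0.36 (SE 0.22, adjusted p = 0.367 in the unfiltered limma fit) did not pass. It was -0.91 with a pseudocount of 0.1 (adjusted p = 0.322), -1.03 with voom on the recovered reads (adjusted p = 0.329) and -0.54 with array weights (adjusted p = 0.154). The highest cyclic library was library 2, the one that also stood apart for PTGS2.

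PTGES3, also known as p23, acts as a cytosolic prostaglandin E synthase and as a co-chaperone of HSP90 on steroid receptors. It was at 218, 269, 363, 279 and 283 RPKM in the cyclic and 284, 276, 266, 310 and 274 RPKM in the pregnant libraries. The pregnant values fell within the cyclic range, and both means were 282 RPKM (SD 52.1 and 16.9, n = 5 each). The difference was 0.02 log2 units (SE 0.14, 95% interval -0.29 to 0.32, limma adjusted p = 0.952), from 4909 to 12973 reads per library. PTGES3 exceeded PTGES by 143 to 1929 times within single libraries.

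CBR1, which can reduce prostaglandin E to prostaglandin F, was at 4.14, 4.18, 3.53, 5.77 and 4.29 RPKM in the cyclic and 4.09, 2.58, 2.89, 5.16 and 2.94 RPKM in the pregnant libraries. Pregnant libraries 2, 3 and 5 lay below every cyclic library, while pregnant libraries 1 and 4 lay within the cyclic range. The difference was -0.27 (SE 0.17, 95% interval -0.65 to 0.12, limma adjusted p = 0.335) and passed in a fit with array weights (adjusted p = 0.0434), in a range of 0.0434 to 0.583 over the alternatives. That fit called 37.6% of all tested features. The level was 1.38 to 2.79 times that of its close relative CBR3, and reads that fit both copies may have been divided between them by the counting.

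ABCC4, a pump that exports prostaglandin E, was at 4.70, 2.85, 5.81, 7.82 and 2.23 RPKM in the cyclic and 1.23, 4.75, 3.87, 1.58 and 3.45 RPKM in the pregnant libraries. Values varied by 3.51 times within the cyclic and 3.88 times within the pregnant group, and the groups overlapped. The difference was -0.51 log2 units (SE 0.33, 95% interval -1.23 to 0.20, limma adjusted p = 0.320), the largest of any member in this fit, and turned to 0.06 with array weights.

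HPGD, the dehydrogenase that starts the breakdown of prostaglandins, was at 0.442, 0.503, 1.22, 0.597 and 0.242 RPKM in the cyclic and 0.12, 0.725, 0.341, 0.821 and 0.984 RPKM in the pregnant libraries. The groups overlapped, with means of 0.600 ± 0.369 and 0.598 ± 0.357 RPKM (SD, n = 5 each). At 5 to 62 reads per library the difference was -0.01 (SE 0.18, adjusted p = 0.991 in the unfiltered limma fit).

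PTGER4, the prostaglandin E receptor that raises cyclic AMP, was the highest membrane receptor for a prostanoid in these cells. It was at 33.9, 31.8, 37.8, 40.0 and 27.6 RPKM in the cyclic and 22.4, 23.6, 26.7, 34.3 and 25.0 RPKM in the pregnant libraries. Pregnant libraries 1, 2, 3 and 5 lay below every cyclic library, and pregnant library 4 lay within the cyclic range. Means were 34.2 ± 4.89 and 26.4 ± 4.69 RPKM (SD, n = 5 each), a difference of -0.37 log2 units (SE 0.14, 95% interval -0.67 to -0.06) that did not pass (unadjusted p = 0.0233, limma adjusted p = 0.131). With array weights, as 37.6% of all tested features did, it passed at -0.28 (adjusted p = 0.0492, in a range of 0.0492 to 0.254 over the alternatives). Its summed reads over the 10 libraries were 15070, so counting error was small beside the spread between libraries. The sum of 5 epithelial markers was 615 to 947 RPKM in cyclic and 562 to 667 RPKM in pregnant libraries. The ciliated sum was lower in every pregnant than in any cyclic library, by a narrow gap from 180 to 183 RPKM. In it FOXJ1 (66.3 to 150 and 51.5 to 79.1 RPKM) and TEKT1 (53.7 to 113 and 61.8 to 102 RPKM) overlapped. Only DNAI1 did not (21.9 to 36.1 and 18.2 to 19.5 RPKM). The secretory sum was lower with some overlap through OVGP1, while PAX8 overlapped fully (72.8 to 107 and 84.1 to 98.3 RPKM). The part of these cell types in the PTGER4 difference was not tested.

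PTGFR, the prostaglandin F receptor that raises calcium, was at 0.305, 0.035, 0.052, 0.397 and 0.017 RPKM in the cyclic and 0.111, 0.192, 0.095, 1.18 and 0.172 RPKM in the pregnant libraries. Pregnant library 4 held 63 of the 135 reads of the gene, and its exact Poisson 95% interval of 0.907 to 1.51 RPKM (counting error only) lay above the values of all other libraries, which held 1 to 16 reads each. The group difference was 0.18 log2 units (SE 0.18, adjusted p = 0.630 in the unfiltered limma fit) and -0.01 without pregnant library 4. With all libraries it was 0.62 with a pseudocount of 0.1 (adjusted p = 0.571) and 1.22 with voom on the recovered reads (adjusted p = 0.438). That library also had the highest summed smooth muscle markers, 45.3 RPKM, with ACTA2 at 23.2 and TAGLN at 7.99 RPKM. Cyclic library 4 came next for both, with a sum of 33.5 RPKM and PTGFR at 0.397 RPKM. Below these the order differed. Cyclic library 2 had a sum of 28.8 RPKM with 2 reads of PTGFR, and cyclic library 1 a sum of 23.9 RPKM with 16 reads. The part of muscle RNA in these values was not tested.

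**Figure D2:**
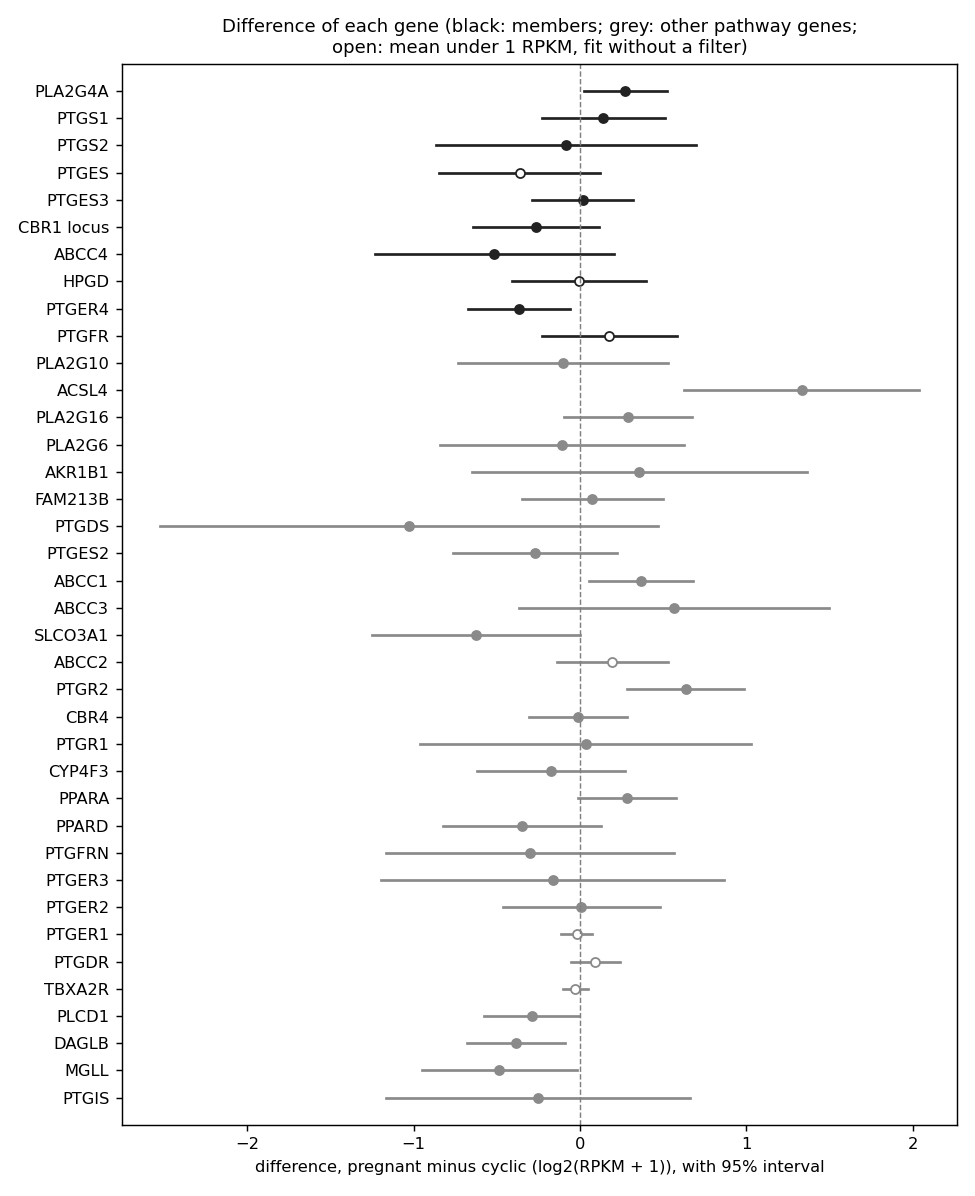
Difference between pregnant and cyclic libraries (log2(RPKM + 1), points) with its 95% interval (lines) for the members in black and for other named pathway genes in grey; open points are genes with a mean under 1 RPKM from the fit without a filter. PLA2G4A at 0.27 and PTGER4 at -0.37 are the members whose interval does not reach 0, while ACSL4 at 1.33 and PTGR2 at 0.64 lie farther from 0 among the other genes.

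Beside the members, a list of 61 other pathway genes was examined, of which 57 were in the table and 34 were tested. None passed at an adjusted p under 0.05. At an unadjusted p under 0.05, 3 were higher and 4 lower in pregnant libraries, against 15.7% and 11.9% of all tested features. Signs were split, with 16 above and 18 below 0, a median of -0.06, and groups that did not overlap for 2 of the 34, against 6.96% of all tested features.

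These 2 genes were ACSL4 and PTGR2, both higher in every pregnant than in any cyclic library. ACSL4, which couples arachidonic acid to coenzyme A and so returns it to lipids, was at 11.9, 21.0, 8.57, 6.99 and 20.7 RPKM in the cyclic and 54.6, 24.3, 44.2, 25.2 and 27.9 RPKM in the pregnant libraries. Means were 13.8 ± 6.65 and 35.2 ± 13.5 RPKM (SD, n = 5 each), a difference of 1.33 log2 units (SE 0.32, 95% interval 0.63 to 2.04). It did not pass with all libraries (limma unadjusted p = 0.00151, adjusted p = 0.0934, a value that 438 features shared). It passed without cyclic library 3 (adjusted p = 0.0415) and with array weights (adjusted p = 0.0173), in a range of 0.0173 to 0.194 over the alternatives. Of all tested features, 17.2% passed without cyclic library 3 and 37.6% with array weights.

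PTGR2, a reductase that acts on the keto product of HPGD, was at 45.1, 49.5, 51.2, 27.4 and 46.9 RPKM in the cyclic and 74.2, 60.9, 66.1, 70.0 and 66.7 RPKM in the pregnant libraries. The groups were separated by the gap from 51.2 to 60.9 RPKM. The difference was 0.64 log2 units (SE 0.16, 95% interval 0.28 to 0.99) and did not pass with all libraries (limma unadjusted p = 0.00204, adjusted p = 0.0934, the same shared value). It passed without cyclic library 3 (adjusted p = 0.0329) and with array weights (adjusted p = 0.00561), in a range of 0.00561 to 0.194 over the alternatives. In these fits 17.2% and 37.6% of all tested features passed. The related reductase PTGR1 showed 0.03 with a 95% interval of -0.96 to 1.03, and its values ran from 5.51 to 40.3 RPKM within the cyclic group alone.

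**Figure D3:**
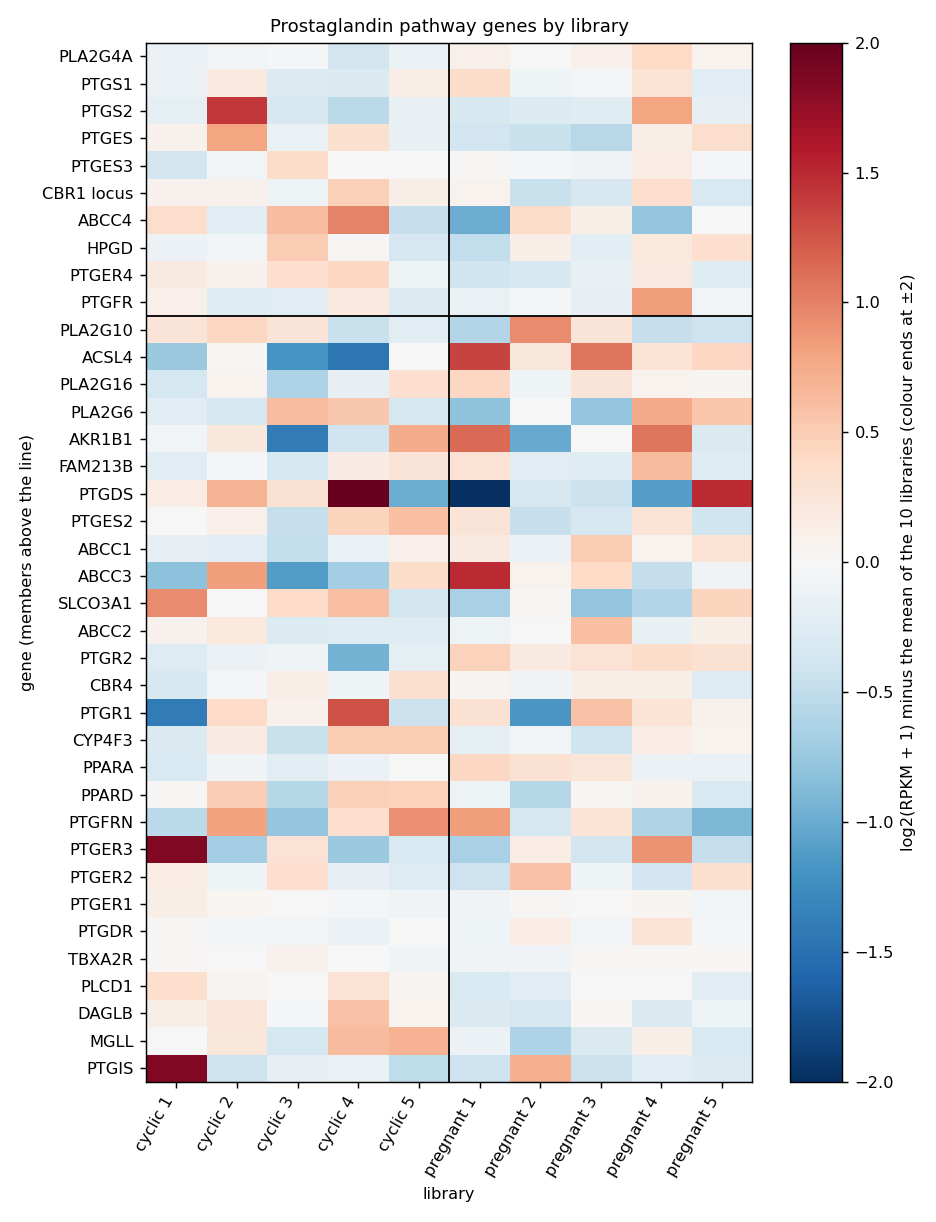
Deviation of each pathway gene (rows) from its own mean over the 10 libraries, on the log2(RPKM + 1) scale, in each library (columns; cyclic left of the line, pregnant right; colours end at 2 in either direction). ACSL4 and PTGR2 split between the groups, PTGS2 is high in cyclic library 2 and pregnant library 4, and PTGER3 and PTGIS are high in cyclic library 1.

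Among other genes that supply arachidonic acid, PLA2G10, a secreted phospholipase, had by far the highest level, 135 ± 32.6 RPKM in cyclic and 134 ± 67.8 RPKM in pregnant libraries (SD, n = 5 each). It was 4.28 to 15.1 times as high as PLA2G4A in each library. PLA2G16 and PLA2G6, other phospholipases, had differences of 0.29 (limma adjusted p = 0.297) and -0.11 (adjusted p = 0.858). The genes with an unadjusted p under 0.05 in the lower direction included DAGLB and MGLL, which break down diacylglycerol and monoacylglycerol and so can release arachidonic acid, at -0.39 (limma adjusted p = 0.113) and -0.49 (adjusted p = 0.168), and the phospholipase C gene PLCD1 at -0.29 (adjusted p = 0.175). DAGLB and MGLL passed without cyclic library 3 (adjusted p = 0.0486 and 0.0458) and with array weights (adjusted p = 0.0443 and 0.00996), in ranges up to 0.215 and 0.337 over the alternatives. Over all tested features, 17.2% passed in the first of these fits and 37.6% in the second.

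Among terminal synthases, the aldose reductase AKR1B1, which makes prostaglandin F in bovine endometrium, was at 57.8 ± 28.7 RPKM in cyclic and 77.5 ± 46.2 RPKM in pregnant libraries (SD, n = 5 each). It exceeded CBR1 by 6.11 to 31.6 times in single libraries. Its difference was 0.36 (SE 0.46, limma adjusted p = 0.643) and -0.27 with array weights. FAM213B, another prostaglandin F synthase, was at 31.0 and 33.4 RPKM, with a difference of 0.07 (adjusted p = 0.832). PTGES2, the membrane-associated prostaglandin E synthase, was at 7.18 ± 2.27 and 5.74 ± 1.75 RPKM and exceeded PTGES in all 10 libraries, by 3.58 to 33.9 times. Its difference was -0.27 (limma adjusted p = 0.451), and passed with array weights at -0.50 (adjusted p = 0.0443), as did 37.6% of all tested features.

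PTGDS, the lipocalin-type prostaglandin D synthase, ran from 4.79 to 60.5 RPKM in cyclic and from 1.49 to 31.4 RPKM in pregnant libraries. The highest values came from cyclic library 4 and pregnant library 5, and the difference of -1.03 (SE 0.68, limma adjusted p = 0.340) did not pass. PTGIS, the prostaglandin I synthase, reached 11.9 RPKM in cyclic library 1, where the stromal fibroblast marker sum was also highest (50.6 RPKM), then 4.82 RPKM in pregnant library 2, against 1.52 to 2.24 RPKM in the rest. Its difference was -0.25 (limma adjusted p = 0.721) with all libraries and 0.18 without cyclic library 1, and the part of stromal RNA was not tested.

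Of the carriers, ABCC1 and ABCC3, relatives of ABCC4, were at higher levels than ABCC4, with ABCC1 exceeding it by 3.83 to 30.3 times in single libraries. ABCC1 was at 29.1 ± 4.36 RPKM in cyclic and 37.8 ± 6.26 RPKM in pregnant libraries (SD, n = 5 each), a difference of 0.37 (SE 0.14, unadjusted p = 0.0245, limma adjusted p = 0.133). It passed with array weights (adjusted p = 0.0362), as did 37.6% of all tested features. ABCC3 differed by 0.56 (SE 0.43, limma adjusted p = 0.402) and by -0.02 with array weights. SLCO3A1, an uptake carrier for prostaglandins, differed by -0.63 (SE 0.29, unadjusted p = 0.0496, limma adjusted p = 0.181). ABCC2 stayed at or below 1.40 RPKM in every library. CBR4 and CYP4F3, listed under breakdown without a check that they act on prostaglandins, gave differences of -0.01 and -0.18 (limma adjusted p = 0.967 and 0.598).

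The other receptors for prostaglandin E stood well below PTGER4. PTGER2, which also raises cyclic AMP, was at 1.68 ± 0.472 RPKM in cyclic and 1.77 ± 0.869 RPKM in pregnant libraries (SD, n = 5 each), 7.84 to 33.1 times below PTGER4. PTGER3, which lowers cyclic AMP, reached 12.4 RPKM in cyclic library 1, and the other libraries held 1.22 to 5.96 RPKM. Its difference was -0.17 (SE 0.47, limma adjusted p = 0.847) and 0.28 without cyclic library 1, the library highest in stromal markers; the part of stromal RNA was not tested. PTGER1, listed as EP1, reached at most 0.194 RPKM.

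Receptors for other prostanoids were near the floor of the table. PTGDR, for prostaglandin D, reached at most 0.302 RPKM, and the thromboxane receptor TBXA2R at most 0.110 RPKM. PTGIR, for prostaglandin I, and PTGDR2, the other prostaglandin D receptor, were listed at 0 in all 10 libraries. PTGFRN, a membrane protein that in the rat lowers ligand binding by PTGFR, differed by -0.30 (SE 0.40, limma adjusted p = 0.650). The nuclear receptors PPARA and PPARD, which lipid ligands can activate, differed by 0.28 (limma adjusted p = 0.195) and -0.35 (adjusted p = 0.311). PPARD passed without cyclic library 3 (adjusted p = 0.0492) and with array weights (adjusted p = 0.0223), in a range of 0.0223 to 0.529 over the alternatives. Those fits called 17.2% and 37.6% of all tested features.

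**Figure D4:**
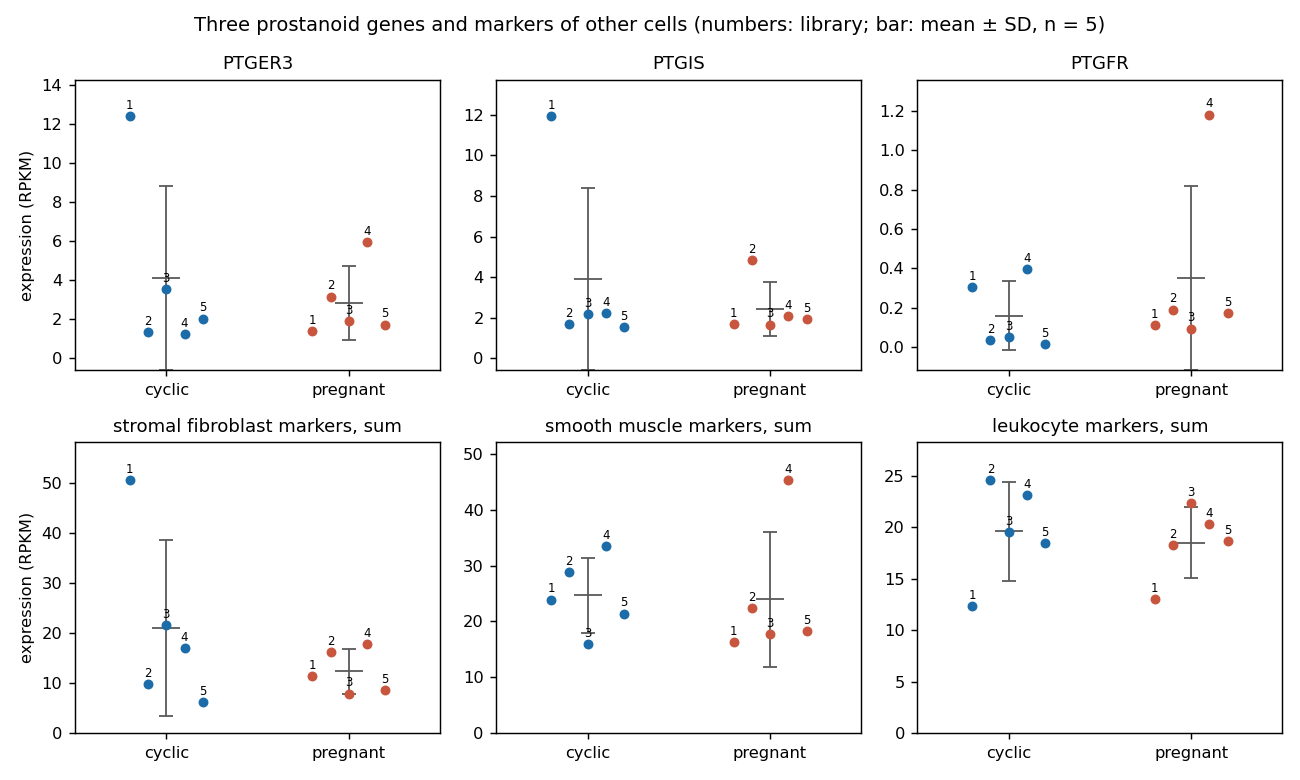
RPKM (linear axes) of PTGER3, PTGIS and PTGFR in each library above the summed markers of stromal fibroblasts, of smooth muscle and of leukocytes; numbers name the library and bars give the mean ± SD (n = 5). Cyclic library 1 is highest for PTGER3 (12.4), PTGIS (11.9) and stromal markers (50.6), and pregnant library 4 for PTGFR (1.18) and smooth muscle markers (45.3).

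Downstream of the receptors, 22 of 24 effector genes in the table (G proteins, adenylyl cyclases, phospholipases C, protein kinase A and arrestins) were tested, and none passed. At an unadjusted p under 0.05, 2 were higher and 2 lower, against 15.7% and 11.9% of all tested features, with a median difference of -0.01. The higher ones were CREB1, the transcription factor that protein kinase A activates, at 0.65 (SE 0.19, limma adjusted p = 0.0956), and the inhibitory G protein GNAI3 at 0.29 (adjusted p = 0.129). The lower ones were the inhibitory G protein GNAI2 at -0.55 (adjusted p = 0.167) and the calcium channel ITPR3 at -0.52 (adjusted p = 0.148). All 4, named for their small p, passed with array weights, as did 37.6% of all tested features. The 3 highest effectors were PRKAR1A, GNAQ and PRKAR2A, at -0.18, 0.45 and -0.11 (limma adjusted p = 0.425, 0.192 and 0.686); GNAQ, the G protein through which PTGFR acts, also passed with array weights. CREB1, GNAI3 and GNAI2 passed without cyclic library 3 as well (adjusted p = 0.0355, 0.0397 and 0.0482), beside 17.2% of all tested features.

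The HSP90 partner genes of PTGES3 had means from 11.8 RPKM for CDC37 to 749 RPKM for HSP90AA1. All 8 in the table were tested and none passed, with 1 above and 7 below 0 (50.9% and 49.1% of all tested features) and a median of -0.17. At an unadjusted p under 0.05, 0 were higher and 2 lower, against 15.7% and 11.9% of all tested features. HSP90AA1, the inducible HSP90, was at 774 ± 176 RPKM in cyclic and 725 ± 133 RPKM in pregnant libraries (SD, n = 5 each; -0.08, limma adjusted p = 0.827). The lower ones were the steroid receptor co-chaperone FKBP4 at -0.64 (SE 0.19, adjusted p = 0.0987) and the kinase co-chaperone CDC37 at -0.57 (SE 0.19, adjusted p = 0.109), beside 0.02 for PTGES3. Both passed with array weights (adjusted p = 0.00423 and 0.00474), as did 37.6% of all tested features, in ranges up to 0.197 and 0.217 over the alternatives. FKBP5, which competes with FKBP4 on steroid receptors, differed by 0.52 (SE 0.29, adjusted p = 0.256), and AHSA1 by -0.05 (adjusted p = 0.847).

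Leukotriene and lipoxygenase genes, which use the same arachidonic acid, were mostly low: 4 of 15 in the table were tested, none passed, and none had an unadjusted p under 0.05. The epoxide hydrolase EPHX2 was the highest at 234 ± 36.7 RPKM in cyclic and 198 ± 20.9 RPKM in pregnant libraries (SD, n = 5 each). Its difference was -0.24 (limma adjusted p = 0.277), and passed with array weights (adjusted p = 0.0299), as did 37.6% of all tested features. LTA4H, the leukotriene A hydrolase, differed by -0.17 (adjusted p = 0.480) and GGT1 (found by description), which trims leukotriene C, by -0.16 (adjusted p = 0.700).

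Single libraries weighed on several members. Pregnant library 4 was the highest pregnant library for 6 of the 10 members and the lowest for none, while cyclic library 5 was the lowest cyclic library for 5 and the highest for none. Leaving out pregnant library 4 moved PTGER4 to -0.46 and CBR1 to -0.38, and leaving out any 1 library kept PLA2G4A between 0.21 and 0.30. No member passed when any 1 library was left out, although over all features 2213 (17.2%) passed without cyclic library 3 and 56 without pregnant library 4.

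**Figure D5:**
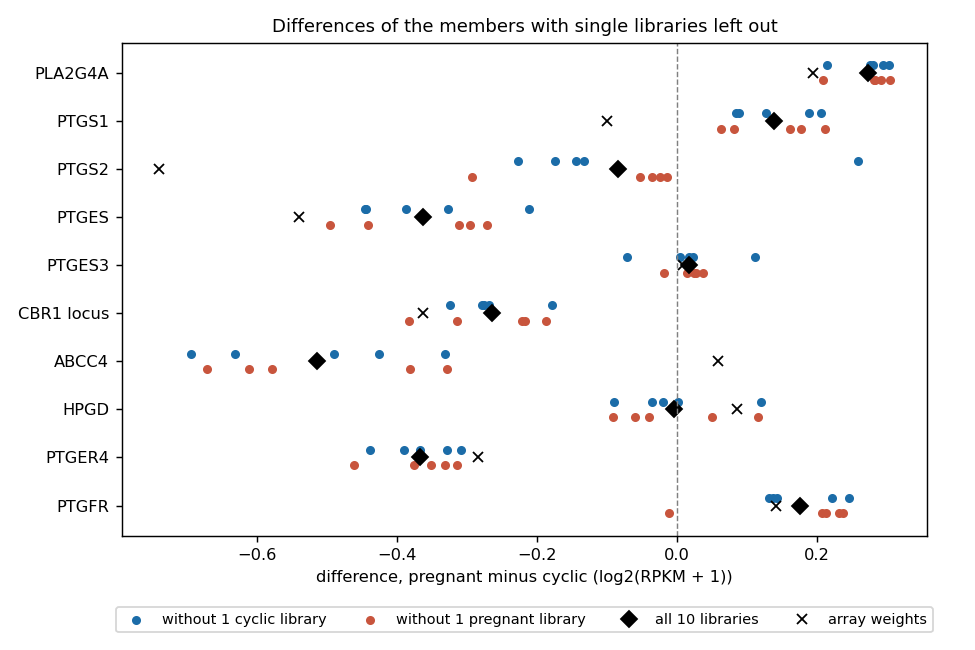
Difference between pregnant and cyclic libraries (log2(RPKM + 1)) of each member with all 10 libraries (diamonds), without 1 cyclic (blue) or 1 pregnant library (red), and with array weights (crosses). PLA2G4A stays between 0.21 and 0.30 and PTGER4 between -0.46 and -0.31 when a library is left out, while PTGS2 runs from -0.29 to 0.26.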

How the data were processed

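Per the labels' protocols, Trizol extracts were enriched for polyadenylated RNA and made into stranded TruSeq libraries. The aligner, counter, genome build and annotation: not given in the sources used here. The authors deposited 1 table of normalised values, called expression in its header, that behaved as RPKM: for 12783 of 12834 tested features (99.6%) all 10 values became whole reads at common library totals and a whole-base length of up to 12000, within 0.02 reads, whereas 0 of 300 jittered features did. Reads and totals in the text are recovered in this way, and Poisson intervals on them cover counting error only.

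Groups came from the treatment label. limma 3.58.1 (R 4.3.3) with trend was fitted on log2(RPKM + 1) with group as the only term, keeping features whose mean RPKM was 1 or more, or all features for genes below that; this scale understates changes of low genes. Simulated tables were used to check the fit and the recovery of reads. The members and lists were chosen with earlier results of these data known. Named genes were all members, up to 4 of the highest mean in each pathway role, every membrane prostanoid receptor, and up to 3 of the other lists. PTGIS, PLCD1, DAGLB, MGLL, CREB1, GNAI2, GNAI3, ITPR3, FKBP4 and CDC37 were added after their values were seen.

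Alternatives were a pseudocount of 0.1, no filter or a minimum mean of 5 RPKM, a threshold of 0.1 and median-ratio scaling. Further ones were array weights with the trend kept, voom on the recovered reads without the trend, the library number as a block, and each library left out. Figures used matplotlib 3.10.9 and tables pandas 2.3.3, in Python 3.11.15.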

Additional observations from a re-analysis of the deposited data

Results flagged for a closer look

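The highest or lowest of 5 libraries is listed here if more than 0.71 of its group's range (Dixon's 95% value) separated it from its neighbour. Among 86 combinations of a group and a gene named by the rule, 13 met this. A chance rate of about 1 in 20 (4.3) holds for independent, normally distributed values. Linear RPKM of genes measured in the same libraries need not be so, and no excess can be read from the 13. The 10 genes named after their values were seen gave 4 more, which no chance count covers. Of the 17, 6 were in pregnant library 4 and 3 in cyclic library 1. No explanation was tested.

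In pregnant library 4, PLA2G4A (21.5 RPKM), PTGS2 (2.24 RPKM), PTGFR (1.18 RPKM), HSP90AA1 (957 RPKM) and FKBP4 (80.8 RPKM) were the highest and CREB1 (10.7 RPKM) was the lowest of the pregnant libraries. In cyclic library 1, PTGER3 (12.4 RPKM) and PTGIS (11.9 RPKM) were the highest and AHSA1 (66.3 RPKM) the lowest of the cyclic libraries. PTGS2 was also far above the rest in cyclic library 2 (3.99 RPKM). PTGDS stood apart in cyclic library 4 (60.5 RPKM) and in pregnant library 5 (31.4 RPKM). In cyclic library 4 PTGR2 was low (27.4 RPKM), and in cyclic library 3 GGT1 was low (5.80 RPKM). ABCC3 was high in pregnant library 1 (82.6 RPKM), ABCC2 in pregnant library 3 (1.40 RPKM) and PTGIS in pregnant library 2 (4.82 RPKM).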

How the results depend on the processing

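Of the 10 members, 4 (PLA2G4A, PTGES, CBR1 and PTGER4) kept their direction in every alternative run, as did 30 of 43 other named genes. The number of features called was 0 with all libraries, 1018 at a threshold of 0.1, 4831 with array weights, and 0 to 2213 when 1 library was left out; 2213 came without cyclic library 3 and 56 without pregnant library 4. Array weights called 2 of the 7 tested members, CBR1 and PTGER4, both lower, beside 37.6% of all tested features. No other alternative called a member. With the library number as a replicate block 0 features and 0 members were called. Same-numbered libraries deviated with correlations of -0.336 to 0.284. So few values cannot settle whether the numbers pair libraries, which the labels do not state. Array weights were highest for pregnant library 3 (3.13) and cyclic library 2 (2.78) and lowest for cyclic library 3 (0.313), and with them PTGS1 turned to -0.10, ABCC4 to 0.059, HPGD to 0.085, AKR1B1 to -0.27, FAM213B to -0.16, ABCC3 to -0.024, PTGER3 to 0.037 and PTGIS to 0.028. A pseudocount of 0.1 turned PTGER2 to -0.016, and it and voom enlarged the differences of low members (PTGES to -0.91 and -1.03, PTGFR to 0.62 and 1.22). The scale of the main fit, log2(RPKM + 1), understates changes of low genes. What else in voom contributed was not tested. Leaving out 1 library turned differences near 0, with ranges of -0.29 to 0.26 for PTGS2, -0.072 to 0.11 for PTGES3, -0.091 to 0.12 for HPGD, -0.011 to 0.25 for PTGFR, -0.35 to 0.031 for PLA2G10, -0.31 to 0.078 for PLA2G6, -0.073 to 0.15 for FAM213B, -0.091 to 0.070 for CBR4, -0.31 to 0.35 for PTGR1, -0.41 to 0.28 for PTGER3, -0.14 to 0.11 for PTGER2, -0.043 to 0.0061 for PTGER1, -0.22 to 0.0052 for HSP90AA1, -0.17 to 0.011 for AHSA1 and -0.46 to 0.18 for PTGIS. Depth limits PTGES, HPGD and PTGFR, which rested on 1 to 63 reads in each library.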
